A study of Oryza sativa with 10 samples.

Results

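Among the accessible chromatin sites of rice seedlings, 2319 of 33382 were called as peaks in the dark alone. A site was a run of peaks of the 10 deposited ATAC-seq lists that overlapped by at least 1 bp. The dark-only sites were selected on the peak calls themselves. They had a peak in both dark lists and none in the 8 lists of the other groups. Their share of all sites, 6.95%, is therefore fixed by the rule and is given as a description.

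The dark group was of rice seedlings germinated and kept in darkness. It was set against seedlings after 8 h of light, seedlings after 24 h of light, seedlings given abscisic acid (ABA) and seedlings given the auxin indole-3-acetic acid (IAA). The plants were of the indica cultivar YD6. The hormones were sprayed onto seedlings near the end of 24 h of light, so all 8 lists outside the dark came from seedlings that had seen light. The dark seedlings were sampled first, and the others were older by their 8 h or 24 h in light. No group was kept dark to these later ages, so light and age cannot be told apart. A mock spray was not analysed here, and spray and hormone cannot be told apart. Whole seedlings were used, so a change in the mix of cell types and a change within cells cannot be told apart. The reads were aligned to MSU7.0, which is a japonica genome, and all coordinates below are of that build.

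A seedling grown in the dark follows skotomorphogenesis. It elongates on the reserves of the seed, and its plastids remain etioplasts, which lack chlorophyll. Light perceived by phytochromes and cryptochromes starts photomorphogenesis, in which leaf blades unfold and chloroplasts form. ATAC-seq maps where the Tn5 transposase can reach the DNA, and such open sites are where promoters, enhancers and other regulatory elements usually lie.

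There were 2 lists in each group, and the dark lists held 24150 and 25302 peaks, against 12659 to 23778 peaks in the other 8. Only for IAA are the totals of the deposited lists those that the study gives, so the dark, light and ABA lists are not shown to be its final calls. The 2 lists of a group differed by less than the sampling noise. For the dark pair the chi-square of the pileups was 0.0792 per site, and 43.7% of summits fell on the same base, against 0.571 to 1.05 and 2.87% to 3.74% for lists of different groups. The study describes the 2 libraries of a group as biological replicates. Because of this closeness the lists of a group were counted here as 1 sample. No SD or p-value is therefore given, and the differences between groups have no replicate check here. The peak caller scaled its background to each library, and this background was lowest in the dark. The commonest background was 3.10 and 3.20 tags in the dark lists, against 4.05 to 4.25 in the 8 h, 24 h and IAA lists and 5.57 and 5.33 in the ABA lists. A site on that background needed 11 tags at its summit to be called in the dark, against 13 or 14 at 8 h, at 24 h and with IAA, and 16 with ABA. A weak site could thus be called in the dark and be missed elsewhere at an equal number of tags. Equal tags need not be equal accessibility, since the depth of the libraries is not known from these lists. The heights differed less than the background, and the largest pileup was between 168 and 180 tags in all 10 lists.

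The dark held more private sites than any other group. By the same rule, applied to each group, 752 sites (2.25%) were called at 8 h alone, 287 (0.86%) at 24 h alone, 197 (0.59%) with ABA alone and 1252 (3.75%) with IAA alone. The groups stood in the same order by these counts as by their mean number of peaks, which was highest in the dark. Sites called in all 10 lists numbered 9508. At 92 sites all 8 other lists had a peak and neither dark list did. This rule is stricter than the dark-only rule, since it asks for calls in 8 lists instead of 2. Among the 8 are the ABA lists, which had the fewest peaks and needed the most tags. The 92 sites therefore cannot be set against the number of dark-only sites.

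The dark-only sites were 10.3% of the 22564 sites called in both dark lists. A larger number lacked a call in light alone. Of the 22564 sites, 3927 had no peak in any list of 8 h or 24 h, and 1608 of the 3927 had a peak in at least 1 hormone list, which left the dark-only sites at 59.1%. The overlap with the hormone lists was mostly with IAA. Of the 3927 sites, 1461 had a peak in an IAA list and 435 in an ABA list. Sites called in the dark and in any list of 1 other group were most often shared with IAA, at 1173 sites, then with 8 h at 587, with 24 h at 375 and with ABA at 147. The order of these 4 groups is also the order of their mean numbers of peaks.

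The dark-only sites were low and narrow peaks. Their pileup, the number of tags stacked over the summit, was 11 to 39 with a median of 18 in dark list 1, and 11 to 42 with a median of 18 in dark list 2. The other 20245 sites called in both dark lists had a median mean pileup of 24, and the sites called in all 10 lists had 30.5. The median of the deposited fold over background was 3.93 at dark-only sites and 5.18 at the other dark sites. The median −log10 q-value was 5.30 at dark-only sites, against 9.61 at the other dark sites. Within the dark lists, 51.9% of dark-only sites ranked in the lowest 25% by −log10 q, against 16.3% of the other dark sites. Only 14 dark-only sites (0.604%) ranked in the highest 25%. Low rank was not particular to the dark. In their own lists 63.8% of the 8 h-only, 68.6% of the 24 h-only and 58.3% of the IAA-only sites ranked in the lowest 25%. For ABA-only sites this was 44.2%. As the plot of pileups shows, the dark-only sites occupied the low end of the distribution of the other dark sites and did not form a separate class.

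**Figure D1:**
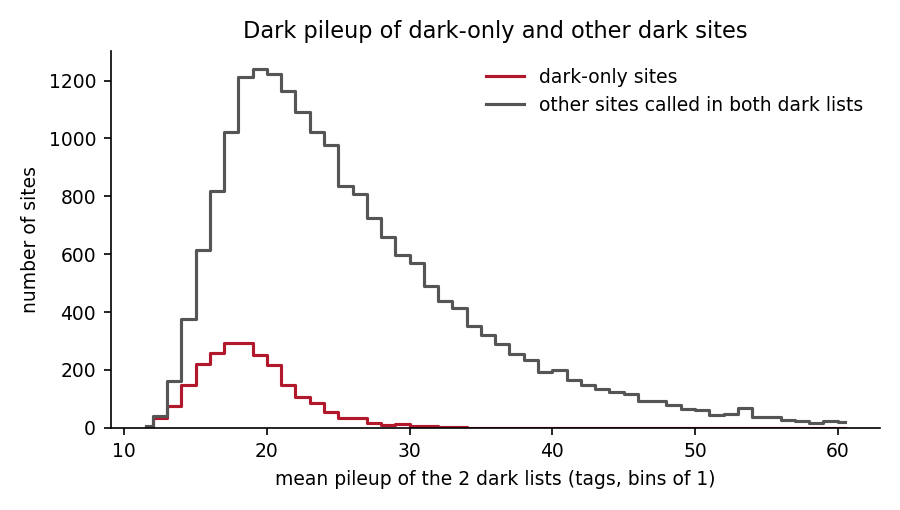
Number of sites (y axis) by mean pileup of the 2 dark lists in tags (x axis, bins of 1 tag, drawn from 11 to 60) for the 2319 dark-only sites (red) and the other 20245 sites called in both dark lists (grey). The medians are 18 tags for dark-only sites and 24 tags for the others, and no dark-only site exceeds 40 tags.

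The dark peak itself was narrower at dark-only sites. Its median width, measured in the dark lists alone, was 137.5 bp, against 222.5 bp at the other dark sites. Sites private to the other groups were similarly narrow in their own lists. Their medians were 140 bp at 8 h, 132 bp at 24 h, 149 bp with ABA and 134 bp with IAA. Peaks under 150 bp made up 59.0% of dark-only sites and 20.1% of the other dark sites. No deposited peak was under 100 bp. The rule itself favours narrow peaks, since a wider dark peak is more easily overlapped by a peak of another list. Comparing sites of like height does not remove this, and the difference in width was also present there. At 18 to 21 tags the median width was 133 bp for dark-only sites and 177.5 bp for the others, and at 25 to 30 tags it was 165 bp and 245 bp. In both dark lists 99.9% of dark-only sites were single peaks, and the widest merged site was the 666 bp at chr7:28312244-28312909, which had 20 tags in each dark list.

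The 2 dark lists gave close values at these sites. Their pileups were within 3 tags of each other at 2193 sites (94.6%), with a largest difference of 8 tags. Dark list 2 was higher at 1152 sites, dark list 1 at 597, and they were equal at 570. The summits fell on the same base at 44.7% and within 20 bp at 81.2% of dark-only sites, close to the 43.5% and 79.6% of the other dark sites. The local background was at its floor at 40.6% of dark-only sites and at 43.4% of the others.

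Dark height climbed with the number of other groups that shared the site. The median mean pileup was 18 tags at dark-only sites, 19 where 1 other group had a peak, 19.5 where 2 had one, 21 where 3 had one and 29.5 where all 4 had one. The steps from 0 to 3 other groups were small beside the spread within each class, whose quartiles at dark-only sites were 16 and 20.5 tags. The width of the dark peak moved in the same order, with medians of 137.5, 149.5, 163, 192 and 285 bp. In height and width the dark-only sites were thus next to the sites shared with 1 other group.

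**Figure D2:**
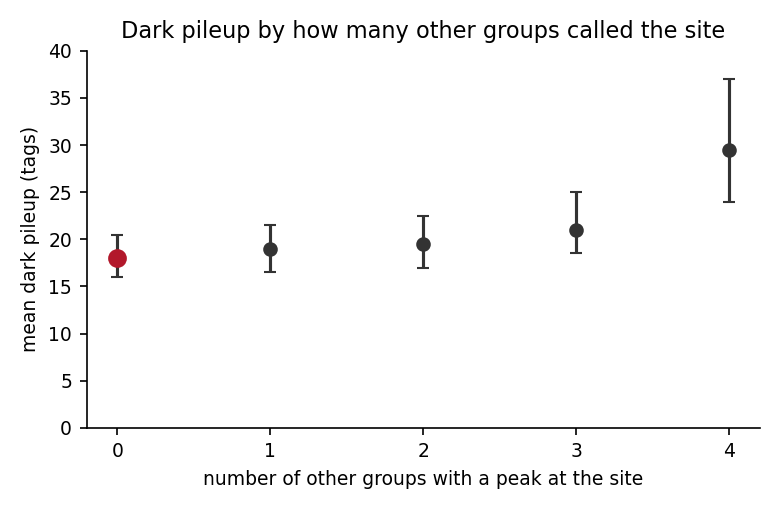
Mean dark pileup in tags (y axis) of sites called in both dark lists, by the number of other groups, of 4, with a peak at the site (x axis). Points are medians and bars span the quartiles over sites, which are not replicates. The dark-only sites (0 other groups, red point) have a median of 18 tags and sites of all groups 29.5.

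Because the call limits differed, the next question was whether the dark height of each site would have been called in the other lists. The mean dark pileup was scaled to each other list by the median ratio of pileups at the 9508 sites called in all 10 lists. It was then divided by the number of tags that a call needed there at the same local background. The lowest of the 8 quotients is called the margin. A site with a margin of at least 1 would have had enough tags for all 8 lists if its height had not changed. The limit separated calls from missing calls only in part. Of the sites in both dark lists that reached the limit of a list, 61.9% to 80.0% were called there. Of those that did not reach it, 19.3% to 45.5% were called. The scale was 1.04 and 1.07 for 8 h, 1.05 and 1.05 for 24 h, 0.971 and 0.955 for ABA, and 1.102 and 1.11 for IAA.

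The margin reached 1 at 852 dark-only sites, or 36.7% (95% Wilson interval 34.8% to 38.7%, counting error only), against 76.6% of the other dark sites. The ABA lists set this share. The call limit was reached at 39.7% and 38.6% of dark-only sites in the ABA lists, against 89.4% and 87.8% in the 8 h lists, 88.2% and 84.4% in the 24 h lists and 95.4% and 94.8% in the IAA lists. The 6 lists of 8 h, 24 h and IAA were all reached at 1949 sites, or 84.0%. At 92 sites no list was reached. Most dark-only sites thus reached the limits at 8 h, at 24 h and with IAA, and most did not reach those with ABA, but these are not all the same sites. Without ABA in the rule, the 147 sites shared with ABA alone would be added to the 2319.

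**Figure D3:**
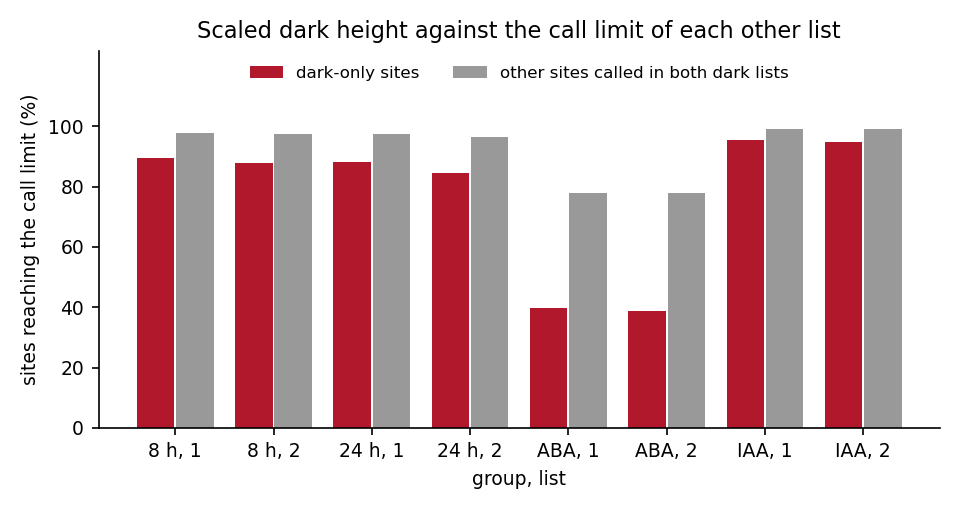
Share of sites (y axis, percent) whose dark pileup, scaled to another list, reaches the number of tags a call needed in that list (x axis, group and list number), for dark-only sites (red) and the other sites called in both dark lists (grey). The dark-only sites lie between 84.4% and 95.4% in the 8 h, 24 h and IAA lists and at 39.7% and 38.6% in the ABA lists.

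This share depended on the scale. With the ratio of the background steps as the scale (1.28 to 1.35 for 8 h, 24 h and IAA, 1.77 and 1.69 for ABA), 100% of the dark-only sites reached all 8 limits, with margins of 1.05 to 2.85. This 100% is nearly fixed by the calculation, because scaling height and background alike keeps the fold of a called dark peak and lowers its p-value. Which scale holds cannot be told from peak lists. The counting error of single sites was also wide. The lower 95% Poisson limit of the dark pileup still reached all 8 limits at 13 sites on the first scale and at 640 sites (27.6%) on the second.

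Large margins were rare among dark-only sites. The median margin was 0.926, against 1.25 at the other dark sites, and the largest was 1.76. Of the sites in both dark lists with a margin under 0.8, 32.3% were dark-only. This share was 18.3% at margins of 0.9 to 1, 9.77% at 1.1 to 1.2 and 2.59% at 1.3 to 1.5. It was 0.539% at 1.5 to 2, where 21 of 3899 sites were dark-only. None of the 2284 sites with a margin of 2 or more was dark-only, and 98.0% of those were called in all 10 lists. Sites far above the limits in the dark were thus nearly all called in the light as well.

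The same measure was taken for the private sites of the other groups, in their own lists. The margin reached 1 at 54.9% of the 8 h-only sites, 47.7% of the 24 h-only sites and 41.5% of the IAA-only sites. All 197 ABA-only sites reached it, with a median margin of 1.625, and the limits outside ABA were lower in tags. The ABA-only sites also ranked higher in their own lists, with 15.2% in the highest 25% by −log10 q, against 0.604% of the dark-only sites in theirs.

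The 12 dark-only sites with the largest margin are the ones whose missing calls depended least on the call limits. They had 26 to 33 tags in the dark lists. A call at the same background needed 13 to 15 tags in the 8 h, 24 h and IAA lists and 16 to 18 in the ABA lists. By −log10 q they ranked between percentiles 74.2 and 86.5 of their dark list, so they were strong for dark-only sites and moderate for the dark as a whole. The lower 95% Poisson limits of their lower dark pileup, 17.0 to 21.1 tags, were above the unscaled tags needed in the other lists at each of the 12 sites. This largely follows from the choice of the sites, which used these same pileups and limits, and the Poisson limits make no allowance for that choice.

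The site at chr7:8316155-8316279 had the largest margin, 1.76. It had 27 tags in dark list 1 and 32 in dark list 2, with both summits at position 8316204. A call there needed 13 or 14 tags at 8 h and at 24 h, 16 with ABA and 13 with IAA, and none was made. The nearest site of any kind lay 28170 bp away.

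The site at chr2:32799209-32799377 had 32 and 30 tags in the dark and a margin of 1.74, and needed 14 tags in the light and IAA lists and 17 in the ABA lists. At chr8:6435138-6435272 there were 28 and 30 tags in the dark lists, with a margin of 1.73. That site stood alone, 92697 bp from the next site. The site at chr7:16971201-16971351 had 30 and 33 tags in the dark, and by contrast lay 359 bp from a site called in all 10 lists. The neighbour stayed called throughout, so the missing calls at this place did not extend to it.

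At chr5:25441940-25442089 both dark lists had 31 tags, on a background that needed 14 or 15 tags at 8 h and with IAA, 15 at 24 h and 18 with ABA. The site at chr4:910043-910328 was the widest of the 12, with 286 bp, and had 27 and 28 tags. It lay 184 bp from the nearest site.

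The site at chr2:5813421-5813654 had 26 and 28 tags, and the site at chr11:10974718-10974905 had 27 and 30 tags. At chr7:4006683-4006877 the dark lists had 29 and 31 tags. These were followed by chr1:1219720-1219941, chr1:19458133-19458302 and chr10:21189769-21189929, each with 26 and 27 tags and a margin of 1.58. Of the 12 sites, 8 lay more than 1 kb from any other site, and 7 were on the floor of the background. No genes are given for them, because an annotation of MSU7.0 was not used here.

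**Figure D4:**
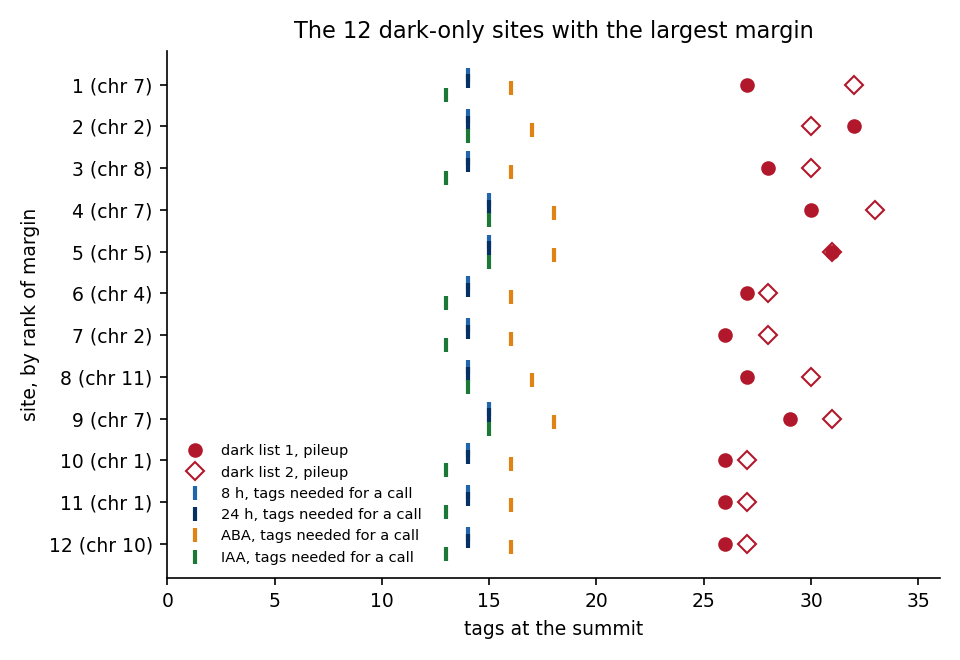
Tags at the summit (x axis) for the 12 dark-only sites with the largest margin, in rank order from the top with their chromosome (y axis). Red circles and diamonds are the pileups of dark lists 1 and 2, and ticks are the unscaled tags a call needed in each other group (the higher of its 2 lists). All dark pileups lie between 26 and 33 tags, to the right of all needed values, which lie between 13 and 18.

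Sites at the median margin show what the typical dark-only site looked like. The site at chr2:3482638-3482841 had 17 and 16 tags in the dark lists, and those at chr3:12901283-12901501 and chr3:13716966-13717235 had 16 and 17 tags each. At all 3, 12 tags were enough for a dark call, against 14 at 8 h, at 24 h and with IAA and 17 with ABA. They passed the dark limit by 4 or 5 tags and, on the scale from shared sites, would have passed all limits but those of ABA. On the background scale their margin was 1.51, so that they would have passed those as well.

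The rule has 2 limits, a call in the dark and no call elsewhere. The sites named at each were chosen in different ways, so their heights cannot be set against each other. Just inside, the members with the lowest q-values were chr4:25565264-25565765 with 20 and 21 tags, chr4:30513796-30514042 with 20 and 23 tags and chr10:6577412-6577705 with 15 and 13 tags. The 2 on chromosome 4 had a high local background, so that even the dark needed 20 tags. Just outside were 763 sites with both dark peaks and a peak in exactly 1 of the other 8 lists, of which 245 and 159 were in the IAA lists, 112 and 64 in the 8 h lists, 119 and 38 in the 24 h lists and 20 and 6 in the ABA lists. Of the 3 strongest of them in the dark, chr7:8069965-8070239 had 29 and 33 dark tags and 21 tags in 1 IAA list. At chr8:7573804-7573965 there were 32 and 30 dark tags and 22 in 1 list of 8 h, and at chr7:20220986-20221148 there were 28 and 32 dark tags and 19 in 1 list of 24 h. In the 1 list with a call, the height at these sites was lower than in the dark but past the limit. A lower height there largely follows from the choice of sites by their dark peaks. The other list of the same group made no call at any of the 3, at a limit of 13 or 14 tags. On the dark side, 487 sites were called in dark list 1 alone and 948 in dark list 2 alone.

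Along the genome the dark-only sites were spread over all 12 chromosomes, with 2 more on the sequence named ChrSy, but not evenly. Chromosome 11, which is known for its many clustered disease resistance genes, held the highest share. There 154 of 1396 sites were dark-only, or 11.03% (95% Wilson interval 9.49% to 12.8%). Chromosome 12 came next with 8.95% (7.70% to 10.4%), and chromosome 3 was lowest with 5.05% (4.45% to 5.72%). The intervals of chromosomes 11 and 12 overlapped, and the upper end for chromosome 9, 9.47%, came close to the lower end for chromosome 11. Chromosome 11 was singled out as the highest of the 12, and the intervals make no allowance for that choice. Of the sites called in both dark lists, 15.3% were dark-only on chromosome 11 and 7.84% on chromosome 3. These intervals treat sites as independent counts and cover no difference between plants.

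The sites private to 8 h and to IAA did not follow this order. The 8 h-only share was highest on chromosome 3, at 3.10%, and 1.86% on chromosome 11. The IAA-only share was lowest on chromosome 11, at 2.65%, and 3.54% on chromosome 3. The chromosome with the highest dark-only share thus had the lowest IAA-only share. The 24 h-only share was, like that of the dark, highest on chromosome 11, with 1.15%, but chromosomes 8 and 12 were close to it with 1.12% and 1.098%, and chromosome 3 had 0.863%. The ABA-only share was 0.716% on chromosome 11 and 0.708% on chromosome 3.

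**Figure D5:**
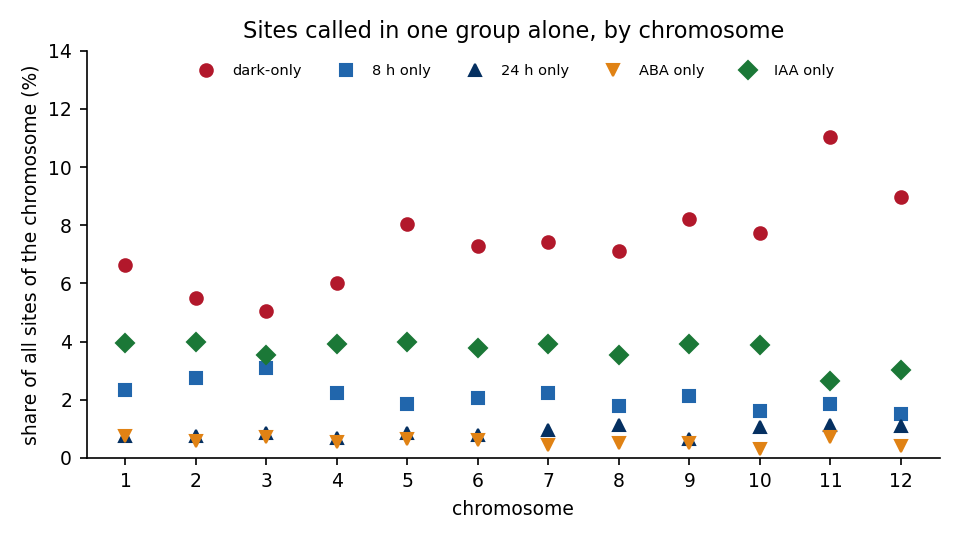
Share of all sites of a chromosome (y axis, percent) that were called in both lists of 1 group and in no other list, for the 12 chromosomes (x axis). The dark-only share (red circles) is highest on chromosome 11, at 11.03%, and lowest on chromosome 3, at 5.05%, while the IAA-only share (green diamonds) is lowest on chromosome 11, at 2.65%.

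Of the 12 chromosomes, chromosome 11 had the fewest sites per length, 48.1 per Mb, against 124 per Mb on chromosome 3. Sparse surroundings went with a higher dark-only share elsewhere too. When the sites called in both dark lists were cut into 5 classes by how many sites called in all 10 lists lay within 100 kb, the dark-only share was 12.6% in the sparsest class and 8.41% in the densest. Within the sparsest class, 15.2% of the sites on chromosome 11 and 12.2% of the sites on other chromosomes were dark-only. Within the next class these shares were 15.5% and 10.9%. The difference of chromosome 11 was therefore also present among sites of like density. It was also present among sites of like height, since at 18 to 21 tags 6.96% of dark-only sites but 3.78% of the other dark sites lay on chromosome 11.

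Chromosome 11 was highest under each of the 18 other rules and left-out lists tried, with a share 1.50 to 1.97 times that of all sites. Its own value moved with the rule. It was 6.97% when dark peaks needed a −log10 q of at least 5, where 3.54% of all sites were dark-only, and 6.12% with lists of equal length, where 3.26% were.

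In bins of 1 Mb, 371 of 381 bins with a site held a dark-only site, with a median of 6 and a most of 17. The 17 were reached between 11 and 12 Mb of chromosome 1, out of 110 sites, and in the first Mb of chromosome 4, out of 83 sites. That bin of chromosome 4 also holds the site at chr4:910043-910328. Among bins with at least 20 sites, the dark-only share was highest between 10 and 11 Mb of chromosome 7, with 7 of 22 sites or 31.8%. On chromosome 11, 20 of 27 such bins were above the share of all sites, so its high share was not set by a single bin. Over all 368 such bins of the genome the median share was 7.07%, itself slightly above the 6.95% of all sites.

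The dark-only sites were mostly isolated. The median distance to the nearest site that was not dark-only was 2283 bp, and 1630 sites (70.3%) were more than 1 kb from any. To the nearest site of any kind, 66.9% of dark-only sites were more than 1 kb away, against 65.8% of the other dark sites and 63.2% of all sites. In isolation they were thus close to other sites of the dark. Distances over 10 kb were found at 346 sites (14.9%).

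Few dark-only sites flanked a constantly open site, and so did few of the other dark sites. A site called in all 10 lists lay within 1 kb of 212 dark-only sites (9.14%), against 9.91% of the other dark sites that were not themselves called in all 10 lists. Among all other dark sites, with those called in all 10 lists included, the share was 11.4%. The comparison varied with height. At 15 to 18 tags this share was 10.9%, against 11.1% of dark-only sites, and at 18 to 21 tags it was 9.52%, against 8.41%. At 25 to 30 tags it was 10.2%, against 4.59% of dark-only sites, of which only 109 lay in that range.

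Most dark-only sites did not have another dark-only site as their next neighbour. Only 6.95% of all sites were dark-only, and the number of runs that this share alone would give was not worked out. With no other site between them, 1883 stood singly, 186 runs held 2, 17 held 3, 2 held 4 and 1 held 5. Within 1 kb of another dark-only site lay 107 of them. The run of 5 covered 7.06 kb at chr5:6819351-6826407. Its sites were chr5:6819351-6819464 with 22 and 21 tags, chr5:6823785-6823935 with 20 and 20, chr5:6824306-6824590 with 25 and 26, chr5:6825814-6826043 with 24 and 24, and chr5:6826249-6826407 with 19 and 19. The middle site had a margin of 1.52 and was among the 21 dark-only sites with a margin of at least 1.5, while 2 of the 5 had margins under 1. By number of sites this was the longest unbroken row of dark-only sites in the genome.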

How the data were processed

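ATAC-seq was done on rice seedlings in 5 groups of 2 libraries. The authors trimmed the reads at the 3′ end, aligned them to MSU7.0 with Bowtie2 (version 2.3.2), filtered them with SAMtools (version 1.9) and called peaks in each library with MACS2. No shift of reads for the Tn5 cut and no control for the ATAC-seq calls is given in the sources used here. In the deposited lists a peak has coordinates, a score that repeats its q-value and was not used, a ratio of pileup to background (the fold), a p-value and a q-value as −log10, and its summit. The smallest −log10 q-values of the deposited lists ranged over 2.00 to 2.06.

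MACS2 writes the fold and the p-value from 1 pileup and 1 background, so each deposited fold and −log10 p was solved for both, for 200537 peaks and to within 0.000203 in −log10 p. In floor units the background was equal within 1% at all 18397 summits that lists of different groups shared to the base. The tags a call needed were the fewest whose Poisson p-value at that background reached the lowest deposited −log10 p of the list. A site without a call may also have had enough tags over less than the shortest width called. The absolute depth of the libraries is not known from these files.

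Sites were peaks merged at an overlap of at least 1 bp. The dark-only sites, lists and rules were chosen with earlier results of these data known. The sites named were, by rule, the 12 with the largest margin, 3 at the median margin, 3 with the lowest q-value, the 3 strongest with 1 other list, the widest, and the run with the most sites. Alternatives were a stricter −log10 q (5 or more), equally long lists, other overlap and presence rules, other scales, heights and distances, and each list left out in turn. The scripts were tested on simulated data and used Python 3.11.15, numpy 2.4.6, pandas 2.3.3 and scipy 1.17.1. Genes, promoters, base composition, motifs and sequences at the sites were not analysed here, since a genome and annotation of MSU7.0 were not used. No test across sites was made, as each group was counted as 1 sample.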

Additional observations from a re-analysis of the deposited data

How the results depend on the processing

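Of 77 values recomputed under other settings, 50 stayed close to the main value and 27 moved. A number of sites was counted as close up to a ratio of 1.5, so 1778 and 3293 sites were both close to 2319. In the order number of dark-only sites, share reaching all 8 call limits, share more than 1 kb from any site that was not dark-only, and dark-only share on chromosome 11, the main values were 2319, 36.7%, 70.3% and 11%. A −log10 q of at least 5 in every list moved the share reaching all limits to 6.57% and the share over 1 kb to 75.9%, with 1872 sites. With that limit in the dark lists only, there were 1120 sites, of which 73.7% reached all limits and 74.4% lay over 1 kb away, with 6.97% on chromosome 11. Lists cut to the 12659 strongest peaks gave 698 sites, 75.4%, 81.2% and 6.12%. A peak in either dark list gave 3754 sites, 31.0% and 17.0%, with 69.6% over 1 kb. Merging peaks within 200 bp moved the share over 1 kb to 75%, and matching summits moved it to 68.4%. Asking for no other peak within 1000 bp moved it to 91.5%, and the share on chromosome 11 to 9.03%. Distances of 500 bp and 2 kb gave 83.4% and 54.2%. The share reaching all limits was 100% with the background as the scale, which the calculation nearly fixes, 32.0% with the lower dark pileup and 56.7% with a scale from shared sites of at most 25 tags, which was added after the data were seen. With single lists left out there were 2325 to 3293 sites, with 34.5% to 39.6% reaching all limits, 69.6% to 71.5% over 1 kb and 11% to 15.0% on chromosome 11. The causes of these shifts were not tested. Promoter, base composition, motif and gene family results were not run. No paired analysis was possible because the results come from no test. Depth also limits single sites, since a pileup of 16 tags has a 95% Poisson interval of 9.15 to 26.0.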
